A study of Mus musculus with 16 samples.

Results

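All 8 quadriceps libraries of mice carrying C26 tumours were set against all 8 libraries of tumour-free mice, so that the comparison took in 16 of the 16 libraries of the study and describes what muscle had in common whichever way the tumour had been given. C26 is a colon carcinoma cell line of the mouse that is widely used to study wasting. Every library came from male CD2F1 mice entered at 8 weeks of age, and carried 1 of 4 tumour labels with 4 libraries each. In the splenic C26 group tumour cells were injected into the spleen to mimic hepatic spread, and sham animals had surgery with saline alone; these 8 libraries have titles starting with LN2. The subcutaneous C26 group received the cells under the skin, and what its control group received is not stated; these 8 have titles starting with AB43. Since each prefix holds 4 tumour and 4 tumour-free libraries, the tumour effect was fitted with the prefix as a covariate, while route of injection, treatment of the tumour-free animals and prefix cannot be told apart. The labels do not give the number of weeks to death, and they do not say that each library came from a separate animal, so the spread behind every p-value is that between libraries and may be technical.

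Wasting muscle loses contractile protein faster than it makes it. Proteins are tagged with ubiquitin by ligases such as those encoded by Fbxo32 (atrogin-1) and Trim63 (MuRF1) and cut up by the proteasome, while autophagy delivers whole organelles and aggregates to the lysosome. FoxO transcription factors switch on genes of both routes and are held back by insulin and IGF1 signalling. In tumour-bearing animals cytokines of the IL-6 family, which act through STAT3, and adrenal glucocorticoids are known to reach muscle and to change its transcription.

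The tumour effect reached most of the measured genes. Of 13247 genes tested, 8665 passed an adjusted p of 0.05, which is 65.4%, and 4360 of these were higher with tumour (32.9% of the genes tested) and 4305 lower (32.5%). Over all genes the log2 fold change had a median of -0.03, and its absolute size a median of 0.54, against a median SE of 0.16. Changes of at least 2-fold were called for 1380 higher genes (10.4%) and 1772 lower genes (13.4%), and changes of at least 16-fold for 44 higher and 21 lower genes. The 8 tumour libraries lay entirely above the 8 tumour-free libraries for 1894 genes (14.3%) and entirely below for 1311 (9.9%), and all 3205 of these genes were called. The balance of directions depended on the scaling. Libraries were scaled by the trimmed mean of M-values (TMM), and upper-quartile scaling moved the median of all genes to -0.25 and the calls to 3210 higher and 5888 lower, so that 35.3% of calls were higher in place of 50.3%.

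Direction also went with abundance. When genes were put into 5 equal bins by mean CPM (counts per 1 M counts, scaled), 12.6% of the lowest bin were higher and 42.9% lower, with a median log2 fold change of -0.50. In the highest bin 51.7% were higher and 22.1% lower, with a median of 0.30. Across 5 bins of exon length the share of higher genes stayed between 30.8% and 35.7%. Lower calls outnumbered higher ones among thinly expressed genes, and the reverse held among abundant ones. The mean CPM was taken over all libraries, tumour included. A gene's own change therefore enters its bin, and part of this trend is built in.

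Library facts bear on all that follows. Total counts were 25.9 M to 34.9 M per library with 18.8% to 30.1% of them in the 10 top genes. The first principal component held 67.0% of the variance and put the tumour-free libraries between -60.9 and -52.7, 6 tumour libraries between 64.0 and 92.7, and 2 in between, splenic C26 replicate 1 at -4.36 and subcutaneous C26 replicate 3 at 5.08. The biological coefficient of variation was 0.353 among tumour and 0.177 among tumour-free libraries. Muscle fibre markers made up 15.5% to 26% of counts with tumour and 17.4% to 23.9% without. Of 13 T, B and NK cell markers none was in the deposited table, and of 9 epithelial markers, which would mark carcinoma cells, only Krt19 was, at 0 to 0.479 CPM in tumour libraries. Transcripts of liver, marrow or red cells were raised to differing degrees in several libraries, as log2 differences from their own tumour-free group. Hepatocyte markers averaged 4.94 in splenic C26 replicate 1, marrow markers 5.97 in splenic replicate 3 and 2.26 in control replicate 1, and red cell markers 5.54 in subcutaneous replicate 4. Splenic replicate 4 was also high in marrow (3.07) and red cell markers (3.75), and subcutaneous replicate 1 in marrow markers (2.71). The marrow list includes Lcn2. Splenic replicates 1 and 3, control replicate 1 and subcutaneous replicate 4 were left out in 1 fit, a choice carried over from earlier results. Leaving out these 4 libraries gave 4240 higher and 4284 lower calls. Hepatocyte markers averaged -4.91 to -3.79 in the subcutaneous libraries, so the control libraries held more of these transcripts. Their summed share reached 0.0275% of counts without and 0.0243% with tumour. The fit without 4 libraries kept all control libraries but replicate 1.

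Each tumour library was placed on the response measured in the other prefix, with which it shares no library. The slope of its log2 differences from its own tumour-free group on the tumour effects fitted in the other prefix was 0.434, 0.957, 1.03 and 1.07 for splenic C26 replicates 1 to 4. For subcutaneous C26 replicates 1 to 4 the slope was 0.821, 0.923, 0.407 and 0.864. Tumour-free libraries, each set against the other 3 of its group, had slopes from -0.041 to 0.039. All 8 tumour libraries therefore carried the response, and splenic replicate 1 and subcutaneous replicate 3 carried less than 50% of it, on a scale where 100% is the response of the other prefix. Without these 2 libraries 4628 genes were called higher and 4936 lower.

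**Figure D1:**
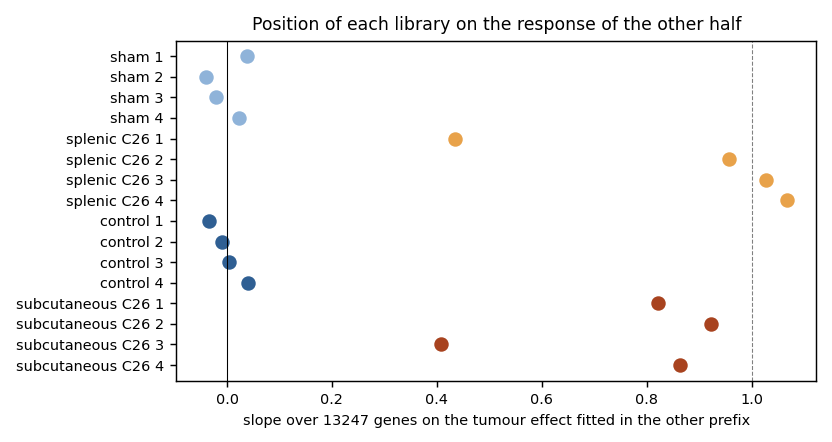
Slope of each library's log2 differences over 13247 genes on the tumour effect fitted in the other title prefix (horizontal axis, no unit); each point is a library, grouped by tumour label. Tumour-free libraries lie between -0.041 and 0.039, 6 tumour libraries between 0.821 and 1.07, and splenic C26 replicate 1 and subcutaneous C26 replicate 3 at 0.434 and 0.407.

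The response recurred in the 2 prefixes, which have no library in common. Tested alone, the LN2 libraries gave 3222 higher calls (24.3%) and 2560 lower (19.3%), and the AB43 libraries 3751 higher (28.3%) and 3240 lower (24.5%). Both called 4764 genes in the same direction, 2818 higher and 1946 lower, which is 82.4% of the LN2 calls and 68.1% of the AB43 calls. Only 14 genes were called in opposite directions, among them Apoa1, Apoc3, Fga, Fgb, Serpinc1, Fbp1 and Hpd, all known as liver genes. Of the 3152 pooled calls of at least 2-fold, 3089 changed at least 1.5-fold in the same direction in each prefix. Over genes the 2 sets of effects had a Pearson correlation of 0.821, given as a description because genes are not independent.

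The difference between the 2 tumour effects was tested for every gene and called none (0.0%), with a smallest adjusted p of 0.065. At an unadjusted p under 0.05 there were 816 genes, or 6.16%. DESeq2 called 58 genes and limma-voom 0. Without the 2 libraries of smallest slope edgeR called 254, so the count of 0 is a statement about these 16 libraries with their spread. The median SE of the difference was 0.31 on the log2 scale, and in simulated counts the test recovered 55% of 4-fold differences and 12% of 2-fold ones. The simulated libraries had the same spread with and without tumour, unlike the data, so these rates may not carry over. Among the genes of smallest p, Kcnj8, a potassium channel gene of pericytes, was at -0.1 with splenic and -1.75 with subcutaneous tumours, Car4, a membrane carbonic anhydrase, at 2.35 and 0.47, and Gnmt, a methyltransferase best known from liver, at 3.9 and 0.77.

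**Figure D2:**
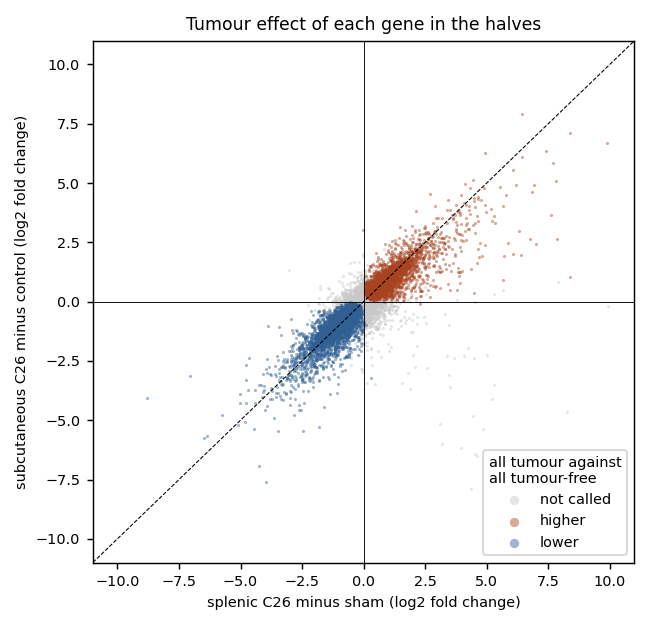
Log2 fold change of each tested gene in splenic C26 against sham (horizontal axis) and in subcutaneous C26 against control (vertical axis), coloured by the pooled call. Called genes lie along the diagonal, with a Pearson correlation of 0.821 over 13247 genes.

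Among the lists of protein breakdown, ubiquitin ligases and FoxO-linked genes had the highest median. Of this list 15 of 24 were higher and 4 lower, with a median log2 fold change of 1.31 beside -0.03 over all genes. Trim63 encodes MuRF1, which ubiquitinates myosin and other thick-filament proteins, and lies on chromosome 4, 134315120 to 134329629, plus strand (mm10). It ran from 209 to 254 CPM (median 239) without tumour and from 2102 to 8341 CPM (median 5211) with tumour, and the log2 fold change was 4.49 ± 0.28 (SE; adjusted p = 2.60e-08). Fbxo32, whose product atrogin-1 is the substrate-binding part of an SCF ligase (chromosome 15, 58175879 to 58214932, minus strand), ran from 318 to 498 CPM (median 400.4) without tumour and from 3164 to 8068 CPM (median 6243) with tumour, a log2 fold change of 3.8 ± 0.21 (adjusted p = 1.38e-08). For both ligases every tumour library lay above every tumour-free one by several fold. Together the 24 listed genes went from 0.311% to 1.41% of all counts.

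The FoxO factors themselves moved apart. Foxo1 ran from 25.2 to 38.5 CPM (median 33.6) without tumour and from 132 to 365 CPM (median 209) with tumour, and rose by 2.69 ± 0.19 on the log2 scale. Foxo3, the other main activator of atrophy genes, rose by 1.62, whereas Foxo6 fell by 3.4, from between 4.99 and 11.7 CPM to between 0.074 and 1.47. Genes that FoxO and p53 are known to induce rose with Foxo1: Cdkn1a, an inhibitor of the cell cycle, by 3.93, Gadd45a, a stress gene, by 2.74, and Sesn1, a leucine sensor that restrains mTORC1, by 2.95. Other ligases were lower: Fbxl22, a sarcomere-linked F-box protein, fell by 2.32 and Trim32, whose loss causes a limb-girdle dystrophy, by 1.01. Fbxo30, also known as MUSA1, rose by 1.25.

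The RefSeq promoter of Trim63 (GRCm38.p6, chr4:134314870-134315169, plus strand, 250 bases before to 50 after the start) is shown because this gene had the strongest rise among the ligases. Capitals mark the single match of the FoxO-type motif TGTTTAC, searched on both strands.
Trim63: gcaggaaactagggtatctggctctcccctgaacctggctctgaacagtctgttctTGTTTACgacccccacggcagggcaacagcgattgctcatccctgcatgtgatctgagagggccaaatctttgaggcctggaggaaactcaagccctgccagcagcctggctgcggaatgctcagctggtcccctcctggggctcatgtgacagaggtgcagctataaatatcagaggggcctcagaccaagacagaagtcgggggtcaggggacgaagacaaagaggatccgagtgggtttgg
Of the 13247 genes tested, 10063 had a promoter in that table. The motif was in 3.39% of the promoters of genes called higher, 2.98% of those called lower and 3.13% of all tested, so its share hardly varied with direction.

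Proteasome genes rose nearly as a block, apart from the subunits of the immune form. Of 48 subunits and assembly factors, 37 were higher and 5 lower, with a median of 1.0, and 30 had all tumour libraries above all tumour-free ones. Psmd4, a ubiquitin receptor of the regulatory particle (chromosome 3, 95032694 to 95042614, minus strand), ran from 93.6 to 112 CPM (median 103) without tumour and from 175 to 593 CPM (median 485) with tumour, a log2 change of 2.07 ± 0.21. Psma7 of the core ring rose by 2.08. The 3 catalytic subunits of the standard core rose by 0.56 to 0.67. By contrast all 5 members of the immunoproteasome and of the PA28 cap, a subset named after its values were seen, were lower (-1.02 to -0.42). Psmb9, an interferon-induced catalytic subunit, ran from 1.8 to 5.8 CPM (median 2.37) without tumour and from 0.686 to 2.52 CPM (median 1.44) with tumour, with overlapping ranges and a log2 change of -0.97 ± 0.3 (adjusted p = 0.0104), and Psme1, which encodes a PA28 subunit, fell by 0.99. The polyubiquitin gene Ubb rose by 2.1, although reads of its repeated units may not all have been assigned to it. Among all 40 ubiquitin and conjugating-enzyme genes 18 of 40 were higher and 10 lower, and with upper-quartile scaling 14 were higher and 15 lower.

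Autophagy and lysosome genes rose by smaller amounts. Of the autophagy list 22 of 37 were higher and 4 lower (median 0.54), and of the lysosome list 21 of 34 were higher and 4 lower (median 0.43). Map1lc3b, which encodes the LC3B protein of the autophagosome membrane, ran from 119 to 139 CPM (median 128) without tumour and from 274 to 715 CPM (median 546) with tumour, a log2 change of 2.0 ± 0.16 with no overlap. Its relative Gabarapl1 rose by 2.72, the mitophagy receptor Bnip3 by 2.21, the cargo receptor Sqstm1 by 1.52 and the starting kinase Ulk1 by 1.63. The gene with the largest rise of this kind was Fam134b, a receptor that feeds endoplasmic reticulum to autophagy, which stood in no list: it ran from 107 to 173 CPM (median 138) without tumour and from 820 to 5264 CPM (median 3588) with tumour, a change of 4.51 ± 0.38. In the lysosome Npc1, a cholesterol exporter, rose by 2.75 and the protease Ctsl by 2.44. Calpains and caspases were divided: 5 of 19 were higher and 5 lower.

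**Figure D3:**
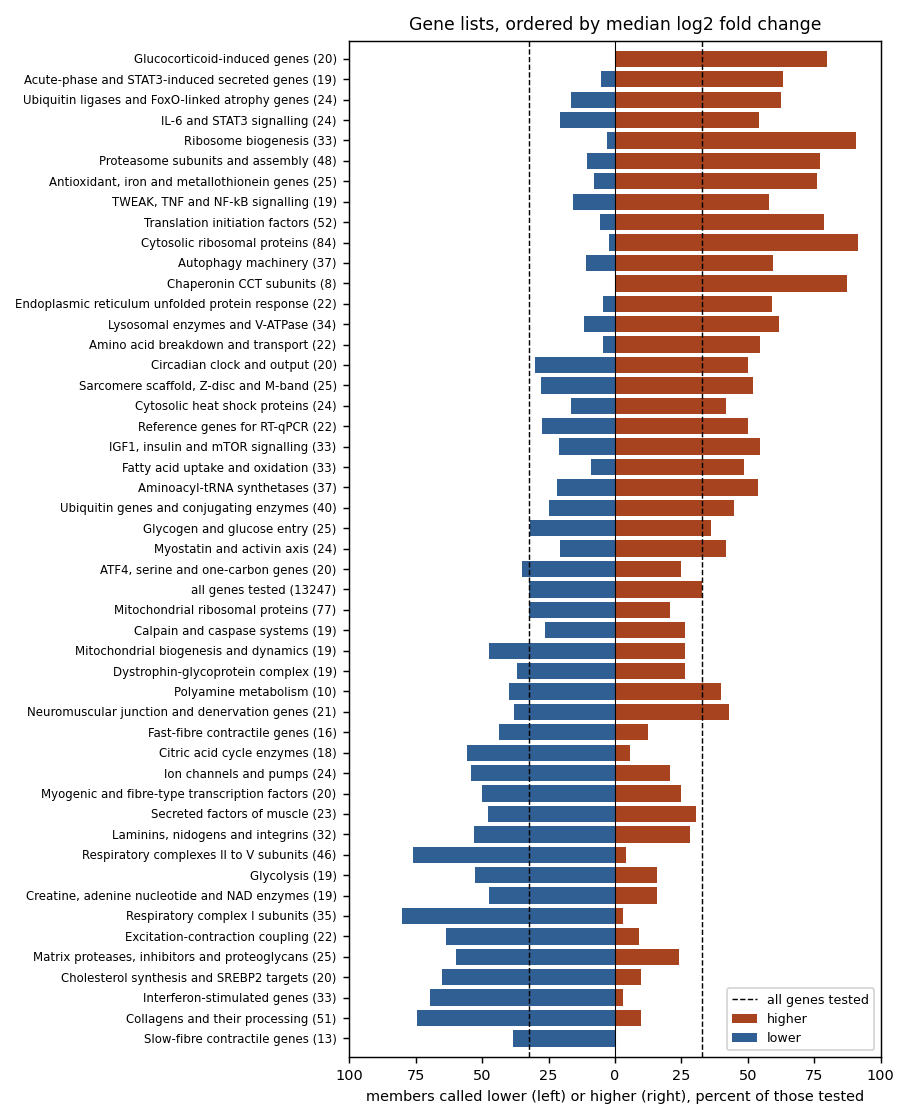
Share of tested members called higher (right) and lower (left) with tumour for each gene list, in percent, with the number of tested members in brackets. Ribosome, proteasome and glucocorticoid-induced lists lie mostly to the right, and respiratory, collagen and interferon lists mostly to the left.

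Cytokine signalling genes were higher on the side of IL-6 and STAT3. Of 24 listed genes, 13 were higher and 5 lower (median 1.21). Il6ra, the ligand-binding chain of the IL-6 receptor (chromosome 3, 89864059 to 89913196, minus strand), ran from 3.12 to 9.06 CPM (median 7.22) without tumour and from 52.8 to 169 CPM (median 139) with tumour. No tumour library came near the tumour-free range, and the log2 change was 4.21 ± 0.26 (adjusted p = 2.60e-08). Socs3, the feedback inhibitor that STAT3 induces, ran from 3.79 to 6.13 CPM (median 4.45) without tumour and from 38.6 to 192 CPM (median 104) with tumour, a change of 4.48 ± 0.32, and Stat3 itself rose by 2.35. Osmr, the oncostatin M receptor, rose by 1.9 and the transcription factor Cebpd by 3.92, whereas Cntfr, the receptor for ciliary neurotrophic factor, fell by 2.16. These levels were high in every tumour library, including the 2 of small slope, in which the list's mean rise was 88.1% and 83.7% of that in the other 3 of their groups.

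The interferon-stimulated genes went the other way. Of 33 listed genes, 23 were lower and 1 higher, with a median of -0.87. Socs1, a feedback inhibitor of interferon signalling outside this list, fell by 1.47. Ifit3, an antiviral RNA-binding protein, ran from 2.64 to 9.83 CPM (median 3.39) without tumour and from 0.508 to 2.27 CPM (median 0.847) with tumour, a change of -2.02 ± 0.3, and Gbp3, a guanylate-binding protein, fell by 2.05. The exception was Rsad2, which encodes viperin and rose by 1.38 with overlapping ranges.

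Acute-phase genes, best known from liver, were higher in 12 of 19 cases and lower in 1 (median 1.97), with a median of 3.66 in the LN2 and 1.77 in the AB43 libraries. The rise was not common to all tumour libraries. The list averaged 2.41 to 3.58 above sham in the splenic libraries and 1.44 to 2.35 above control in 3 subcutaneous ones, but 0.1 in subcutaneous C26 replicate 3, below the tumour-free control replicate 2 at 1.31. Lcn2, an iron-siderophore binding protein (chromosome 2, 32384633 to 32388252, minus strand), had the largest log2 fold change among the named rises: it ran from 0.643 to 4.29 CPM (median 0.929) without tumour and from 15.5 to 2318 CPM (median 318) with tumour, a change of 8.21 ± 1.09. Serpina3n, a serine protease inhibitor, ran from 4.9 to 24.3 CPM (median 8.21) without tumour and from 82.5 to 1298 CPM (median 424) with tumour, a change of 5.54 ± 0.6. Haptoglobin, Hp, rose by 4.17 and Saa3 by 6.72, and near-identical Saa and Serpina genes may share reads. None of the 7 hepatocyte markers tested was called. Their mean level was 4.94 above sham in splenic C26 replicate 1 and between -0.68 and -0.06 in the other 3 splenic libraries. Against control it was between -4.91 and -3.79 in the subcutaneous libraries. Their summed share was 0.00336% to 0.0275% of counts without tumour and 0.00227% to 0.0243% with tumour. Of marrow and neutrophil markers 6 of 11 were higher, and the list took 0.000624% to 0.00652% of counts without and 0.00224% to 0.207% with tumour. Lcn2, at up to 2318 CPM, stands in this list too. The shares and mean levels of marrow markers are therefore not separate from the acute-phase list. The part of hepatocyte and marrow markers in the acute-phase rise was not tested. Without the 4 libraries left out for transcripts of other tissues, Lcn2, Serpina3n, Hp and Saa3 were called higher, but of the tumour libraries that stayed in, splenic C26 replicates 2 and 4 and subcutaneous C26 replicates 1 and 2 still had marrow markers 1.89 to 3.07 above their tumour-free groups.

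Glucocorticoid-induced genes were higher in 16 of 20 cases and lower in none (median 1.98). Mt1 and Mt2 stand both here and in the metallothionein list, and Glul both here and in the amino acid list, so these lists are not separate. Fkbp5, a chaperone that damps the glucocorticoid receptor, ran from 25.2 to 109 CPM (median 43.4) without tumour and from 216 to 790.4 CPM (median 479.8) with tumour, a change of 3.36 ± 0.34. Zbtb16, a transcription factor often used as a readout of the receptor, ran from 53.0 to 90.3 CPM (median 63.9) without tumour and from 218 to 382 CPM (median 318) with tumour, and its change of 2.22 ± 0.13 had an adjusted p of 1.38e-08. Klf15, which drives amino acid breakdown, rose by 2.2, and Ddit4, an inhibitor of mTORC1, by 4.35. Nr3c1, the receptor gene itself, differed by -0.03 (95% interval -0.26 to 0.19) and was not called. Glul, which makes glutamine, rose by 2.45.

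Metallothioneins, small proteins that bind zinc and copper, rose steeply. Mt2 ran from 2.21 to 13.5 CPM (median 3.99) without tumour and from 87.9 to 1805 CPM (median 997) with tumour, a log2 change of 7.73 ± 0.7 (adjusted p = 5.61e-07), and Mt1 ran from 8.6 to 22.8 CPM (median 10.7) without tumour and from 114 to 2913 CPM (median 1477) with tumour, a change of 6.89 ± 0.63. The lowest tumour library of each still lay above the highest tumour-free one by several fold; the 2 genes are close copies and may share reads. Slc39a14, which encodes the zinc and iron importer ZIP14 (chromosome 14, 70303469 to 70351425, minus strand), ran from 16.2 to 21.3 CPM (median 17.8) without tumour and from 56.5 to 1520 CPM (median 644) with tumour, a change of 5.17 ± 0.59.

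The promoters of Mt2 (chr8:94172368-94172667, plus strand) and Mt1 (chr8:94178839-94179138, plus strand), again from RefSeq on GRCm38.p6, are shown because these neighbours rose together and because metal response elements are the textbook feature of metallothionein promoters. Capitals mark the core of that element, TGCNCNC, on either strand: 6 matches in Mt2 and 3 in Mt1.
Mt2: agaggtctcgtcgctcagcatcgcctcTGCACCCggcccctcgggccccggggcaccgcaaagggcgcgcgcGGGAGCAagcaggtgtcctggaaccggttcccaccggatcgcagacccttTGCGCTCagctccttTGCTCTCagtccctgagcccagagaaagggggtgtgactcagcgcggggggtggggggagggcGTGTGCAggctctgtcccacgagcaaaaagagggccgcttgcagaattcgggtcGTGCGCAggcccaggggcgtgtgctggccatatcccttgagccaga
Mt1: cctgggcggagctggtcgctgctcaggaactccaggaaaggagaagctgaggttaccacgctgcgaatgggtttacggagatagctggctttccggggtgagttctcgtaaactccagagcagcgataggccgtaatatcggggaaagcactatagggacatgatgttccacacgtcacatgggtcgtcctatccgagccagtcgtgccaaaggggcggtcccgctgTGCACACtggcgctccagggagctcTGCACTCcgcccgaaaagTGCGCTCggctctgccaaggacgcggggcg
This short core was common: 64.4% of the promoters of tested genes and 51.0% of all windows in the table held at least 1 match. Among the other motifs searched, the E-box CACGTG was in 14.4% of promoters of genes called higher, 9.15% of those called lower and 11.7% of all tested, and the STAT motif TTCCNGGAA in 1.8%, 1.24% and 1.56%. The short motif AGAACA, only a part of the glucocorticoid receptor element, was in 14.4%, 14.7% and 14.8%, and the cyclic-AMP element TGACGTCA in 3.6%, 3.04% and 3.48%.

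Iron storage genes were higher and the main uptake receptor lower. Tfrc, the transferrin receptor through which cells take up iron (chromosome 16, 32608920 to 32632794, plus strand), ran from 133 to 173 CPM (median 144) without tumour and from 4.93 to 28.3 CPM (median 14.5) with tumour, so that all tumour libraries lay far below the others, a change of -3.46 ± 0.23 (adjusted p = 4.89e-08). The ferritin chains Ftl1 and Fth1, which store iron, rose by 0.84 and 0.55, and Hmox1, which releases iron from haem, by 2.24. Of the whole antioxidant, iron and metallothionein list 19 of 25 were higher and 2 lower (median 0.79). Gpx3, a secreted glutathione peroxidase, rose by 2.04, and the mitochondrial superoxide dismutase Sod2 fell by 0.86.

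**Figure D4:**
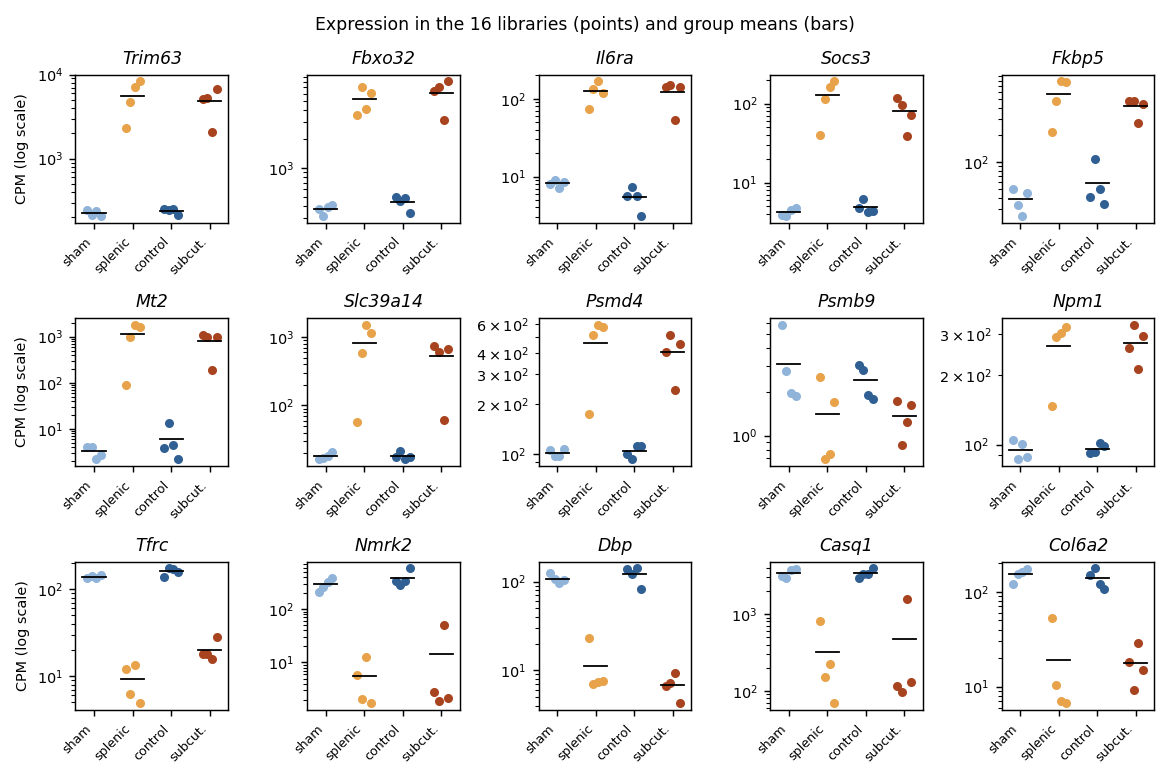
CPM of 15 genes on a log scale in the 4 groups; points are libraries and bars group means. Trim63, Fbxo32, Il6ra, Socs3 and Slc39a14 are higher in every tumour library than in any tumour-free library, and Tfrc, Nmrk2, Dbp, Casq1 and Col6a2 lower.

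Growth signalling was mixed. In the IGF1, insulin and mTOR list 18 of 33 were higher and 7 lower (median 0.33). Eif4ebp1, which blocks cap-dependent translation when mTORC1 is idle, ran from 30.4 to 40.7 CPM (median 38.2) without tumour and from 162 to 601 CPM (median 553) with tumour, a change of 3.68 ± 0.27. Akt1, a kinase of the insulin route, rose 4.42-fold and the adaptor Irs2 4.31-fold, while the adaptor Irs1 fell by 1.15 and the mTOR inhibitor Deptor by 1.35. Igfbp5, an IGF-binding protein of muscle, ran from 1181 to 2067 CPM (median 1475) without tumour and from 28.4 to 491 CPM (median 61.1) with tumour, a change of -3.33 ± 0.59. In the myostatin and activin axis 10 of 24 were higher and 5 lower, and with upper-quartile scaling 7 were higher and 10 lower. Inhbb, which encodes the activin B subunit, rose by 2.25, and Gdf11 and Inhba, ligands of the same family, fell by 2.81 and 1.81. Mstn, myostatin itself, changed by 0.52 ± 0.17 (adjusted p = 0.013) with overlapping ranges, a call that was lost with upper-quartile scaling and without the 4 libraries with transcripts of other tissues. Of the TWEAK, TNF and NF-kB list 11 of 19 were higher and 3 lower (median 0.71). Tnfrsf12a, the TWEAK receptor, rose by 2.17 with overlapping ranges, and Map3k14, the kinase of the noncanonical NF-kB route, by 2.1 with none.

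Genes for making ribosomes rose broadly. Of the cytosolic ribosomal protein genes 77 of 84 were higher and 2 lower (median 0.66), with values of single genes uncertain because of their many pseudogenes. Of ribosome biogenesis genes 30 of 33 were higher and 1 lower (median 1.16), and of initiation factors 41 of 52 were higher and 3 lower (median 0.7). Myc, the transcription factor that drives ribosome production, ran from 3.63 to 7.1 CPM (median 5.41) without tumour and from 19.8 to 36.0 CPM (median 27.4) with tumour, a change of 2.34 ± 0.16. Npm1, a nucleolar chaperone, ran from 86.3 to 105 CPM (median 95.6) without tumour and from 146 to 329.8 CPM (median 293) with tumour, a change of 1.5 ± 0.14. No tumour library overlapped the tumour-free range for either. Among the ribosomal proteins Rpl3l, the form of Rpl3 made in striated muscle, fell by 0.45 whereas Rpl3 rose by 1.23, both with overlapping ranges.

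Charging enzymes differed by compartment. Of 20 cytosolic or shared aminoacyl-tRNA synthetases 16 were higher and none lower (median 0.68), and of 17 mitochondrial ones 4 were higher and 8 lower (median -0.22); this split was made after the values were seen. Vars, for valine, rose by 2.01, and its mitochondrial counterpart Vars2 fell by 0.42. Of the 77 mitochondrial ribosomal protein genes 16 were higher and 25 lower (median -0.10), unlike the cytosolic ones. Their share called, 53.25%, was below the 65.4% of all genes tested, of which 32.5% were lower. In the unfolded protein response 13 of 22 were higher and 1 lower (median 0.51), with the sensor Ern1 at 1.61, its product's target Xbp1 at 1.25 and the chaperone partner Dnajb9 at 1.19. Atf4, which responds to amino acid shortage, rose by 1.17, but its list was split, in that 5 of 20 were higher and 7 lower, and the amino acid transporter Slc7a5 rose by 2.37, and Ddit3 fell by 0.87 and the serine-making enzymes Phgdh and Psph by 1.28 and 1.49. Of the 8 genes of the CCT chaperonin, which folds actin and tubulin, 7 were higher and none lower.

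Mitochondrial energy genes were mostly lower. Of 35 nuclear genes of respiratory complex I, 28 were lower and 1 higher (median -0.56), and of 46 genes of complexes II to V, 35 were lower and 2 higher (median -0.49). Cycs, cytochrome c, ran from 242 to 298 CPM (median 276) without tumour and from 90.7 to 219 CPM (median 120.3) with tumour, a change of -1.06 ± 0.16 without overlap, and Cox7a1, the muscle form of a complex IV subunit, fell by 1.24. Ndufb10 of complex I ran from 203 to 240.3 CPM (median 218) without tumour and from 90.4 to 188 CPM (median 116) with tumour, a change of -0.83 ± 0.13. Ndufa7 was the complex I gene that rose, by 0.46. The list of mitochondrial biogenesis and dynamics held calls both ways: 5 of 19 were higher and 9 lower (median -0.15), or 3 and 11 with upper-quartile scaling. Esrra, the nuclear receptor of oxidative genes, fell by 1.51, its muscle partner Perm1 by 1.76 and the coactivator Ppargc1b by 1.5. Among other regulators Nrf1, which activates nuclear genes of respiration, rose by 0.99 and the mitochondrial DNA polymerase Polg by 0.75, both without overlap, and Tfb2m, a mitochondrial transcription factor, rose by 0.36 and Gabpa, an activator of respiratory genes, by 0.25, both with overlapping ranges and calls lost with upper-quartile scaling. Ppargc1a was higher, at 1.35 ± 0.49 (adjusted p = 0.0245), with values up to 638 CPM in splenic C26 replicate 3 and overlapping ranges. Without that library the change was 0.44, and the call was lost in 2 of the fits that left out a library (splenic replicate 3 or subcutaneous replicate 4, adjusted p = 0.0502 to 0.0809). The fall of both respiratory lists was not seen in subcutaneous C26 replicate 3, where complex I genes averaged -0.01 against control, with -0.97 to -0.85 in the other 3 subcutaneous libraries.

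Among fuel genes, the glycolysis and citric acid cycle lists held more lower than higher calls, the fatty acid and amino acid lists more higher ones, and glycogen and glucose entry was divided. Of glycolysis genes 3 of 19 were higher and 10 lower (median -0.52), and of citric acid cycle genes 1 of 18 were higher and 10 lower (median -0.38). Of fatty acid genes 16 of 33 were higher and 3 lower (median 0.27, or 0.51 in LN2 and 0.09 in AB43). Their share called, 57.6%, was below the 65.4% of all genes tested. The fatty acid list averaged 0.32 to 1.05 above sham in the splenic libraries, with sham replicate 2 at 0.34. It averaged 0.21 to 0.29 above control in subcutaneous replicates 1, 2 and 4 and 0.59 in replicate 3, with control replicate 1 at 0.25. Of genes for glycogen and glucose entry 9 of 25 were higher and 8 lower (median 0.21): Ugp2, which makes the sugar donor for glycogen, rose by 2.03 and Gyg, the primer of glycogen, by 1.19, and the glucose transporter Slc2a1 by 1.0 with overlapping ranges. Pdk4, which shuts pyruvate out of the mitochondrion, ran from 225 to 1296 CPM (median 829.8) without tumour and from 3099 to 8987 CPM (median 6356) with tumour, a change of 2.82 ± 0.32. Tpi1 and Pgam2, both glycolytic, fell by 1.34 and 1.39 without overlap. Acot2, a thioesterase of fatty acid breakdown, rose by 2.88, the carrier Ucp3 by 1.25 and the fatty acid importer Cd36 by 0.94. Acot1, nearly identical to Acot2, rose by 4.48, with reads that may be shared. For amino acid breakdown and transport 12 of 22 were higher and 1 lower, with Bcat2, the first enzyme of branched-chain amino acid breakdown, at 0.68.

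Nucleotide, creatine and cofactor genes included the largest of the named falls. Nmrk2, a nicotinamide riboside kinase that makes NAD precursors in muscle (chromosome 10, 81198170 to 81202051, minus strand), ran from 213 to 582 CPM (median 330.5) without tumour and from 1.75 to 49.7 CPM (median 2.49) with tumour, a log2 change of -5.25 ± 0.73 (adjusted p = 1.96e-05). The highest tumour library, subcutaneous replicate 3, lay far below the lowest tumour-free one. Ampd3, the AMP deaminase known from red cells, rose by 4.08, and the muscle form Ampd1 fell by 1.56 with overlapping ranges. The 3 red cell markers in the table took 0.00037% to 0.00167% of counts without and 0.00081% to 0.0121% with tumour, and their part in the rise of Ampd3 was not tested. Gamt, the last enzyme of creatine synthesis, fell by 2.86 and mitochondrial creatine kinase Ckmt2 by 1.78. Sirt3 fell by 1.6 and Sirt1 rose by 1.14, both deacetylases that consume NAD. Among polyamine genes Odc1, the first enzyme of synthesis, rose by 1.33, and Smox, which oxidises spermine, fell to 0.226 times its tumour-free level, both with overlapping ranges. In cholesterol synthesis 2 of 20 were higher and 13 lower (median -0.76): Dhcr7, which acts late in the pathway, fell by 2.21, and Fdft1, which makes squalene, rose by 1.67.

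Contractile genes gave a mixed picture with a few large falls. Of fast-fibre genes 2 of 16 were higher and 7 lower, and of slow-fibre genes 0 of 13 were higher and 5 lower. The shares called, 56.25% and 38.5%, were below the 65.4% of all genes tested, of which 32.5% were lower. The slow-fibre list had a median of -0.49 in LN2 and -2.0 in AB43. It averaged -1.63 to 0.21 in splenic and -2.92 to -1.02 in subcutaneous libraries, beside -0.55 to 1.09 in sham and -1.23 to 1.51 in control libraries. The fast-fibre list averaged -0.72 to -0.37 in splenic libraries and was not lower in subcutaneous C26 replicate 3. Casq1, calsequestrin, the calcium store of fast fibres (chromosome 1, 172209894 to 172219868, minus strand), ran from 2970 to 3932 CPM (median 3308) without tumour and from 69.7 to 1573 CPM (median 140.4) with tumour, a change of -3.13 ± 0.62. Pvalb, the calcium buffer parvalbumin, fell by 1.62, and the light chains Myl1 and Mylpf by 1.49 and 1.27. Of the fast myosin heavy chains Myh4, the main one of this muscle, was at 0.32 ± 0.23 (95% interval -0.17 to 0.81) and not called. Myh1, at 0.51 ± 0.21, and Myh2, at -0.75 ± 0.3, had adjusted p-values of 0.0452 and 0.034, and leaving out a library often ended these calls. That of Myh1 was lost without any library other than splenic 1, control 1, control 3, subcutaneous 1 or subcutaneous 4 (adjusted p = 0.0518 to 0.101), and that of Myh2 without splenic 3, control 1, 2 or 3, or subcutaneous 1, 2 or 4 (0.0525 to 0.0733). Myh7, the slow form, ran from 1.98 to 318 CPM without and 0.481 to 222 CPM with tumour and was not called.

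By share of all counts, the largest gains were those of Flnc (0.106% ± 0.0293 to 0.682% ± 0.317), Tacc2, Fbxo32 and Pdk4, with SD over 8 libraries. Flnc, filamin C, a Z-disc protein of strained muscle, rose by 2.91 ± 0.32, and Tacc2, a centrosome-linked protein, by 2.87 ± 0.19, both without overlap. Ttn, titin, and Myh4 also gained share; Ttn changed by 0.53 ± 0.21 (adjusted p = 0.0323), and its call was lost without sham 2, splenic 2, control 1, 2 or 3, or subcutaneous 2 or 4 (0.44 to 0.52, adjusted p = 0.0512 to 0.067). The largest losses were those of Acta1 (3.25% ± 0.273 to 1.92% ± 0.623), Tpm1, Pvalb, Mylpf, Myl1 and Ckm. Acta1, skeletal actin, changed by -0.54 ± 0.21 (adjusted p = 0.0301) with overlapping ranges, and was no longer called without sham replicate 4 or without control replicate 4 (-0.51 to -0.48, adjusted p = 0.0547 to 0.0601). Tpm1, tropomyosin, fell by 1.25. Ckm, muscle creatine kinase, differed by -0.12 ± 0.19 and was not called.

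Membrane and calcium-release genes were lower more often than higher. In excitation-contraction coupling 2 of 22 were higher and 14 lower (median -0.56), and among ion channels and pumps 5 of 24 were higher and 13 lower (median -0.39). Jph2, which holds the tubule and reticulum membranes together, ran from 779 to 1253 CPM (median 987) without tumour and from 104 to 735 CPM (median 198) with tumour, a change of -1.76 ± 0.35. Stac3, needed for the calcium channel to reach the membrane, fell by 1.57, and Clcn1, the resting chloride channel, by 1.75. In the Z-disc and M-band list 13 of 25 were higher and 7 lower: the strain-responsive genes Ankrd1, Xirp1 and Nrap rose by 4.14, 2.45 and 1.44, the first 2 with overlapping ranges, and Myom3 fell by 1.73.

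Genes of the neuromuscular junction were divided: 9 of 21 were higher and 8 lower, or 8 and 11 with upper-quartile scaling. Musk, the receptor kinase that organises the synapse, rose by 2.01, Myog, myogenin, by 2.18 and Runx1, induced by denervation, by 2.65. Chrne, the adult receptor subunit, fell by 1.69, the esterase Ache by 2.01 and the repressor Hdac9 by 2.40, while Chrna1, a subunit of every muscle receptor, was at -0.1 and not called. Mef2c, a factor of muscle structure and oxidative genes, ran from 508 to 772 CPM (median 644) without tumour and from 41.4 to 392 CPM (median 73.5) with tumour, a change of -2.25 ± 0.43. Among the myogenic and fibre-type factors 5 of 20 were higher and 10 lower.

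Clock genes changed strongly in both directions: 10 of 20 were higher and 6 lower. Dbp, an output factor that the clock switches on daily (chromosome 7, 45705088 to 45710203, plus strand), ran from 83.3 to 141 CPM (median 114) without tumour and from 4.29 to 22.8 CPM (median 7.21) with tumour, a change of -3.7 ± 0.29. Its relative Hlf fell by 2.09 and the repressor Bhlhe41 by 2.48. Nfil3, which binds the same sites as Dbp and represses them, ran from 18.5 to 31.9 CPM (median 21.5) without tumour and from 87.5 to 310.4 CPM (median 135) with tumour, a change of 2.63 ± 0.23. The activator Arntl rose by 1.77 and Per1 by 1.7, both with overlapping ranges, and Nr1d1, which represses Arntl, fell by 1.0. The labels give no time of day for the collection of muscle, and its part in these values was not tested.

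Matrix genes were lower. Of 51 collagen and collagen-processing genes, 38 were lower and 5 higher (median -1.22), and the list went from 0.387% to 0.139% of counts. Col6a2, a chain of the collagen VI around fibres (chromosome 10, 76595762 to 76623630, minus strand), ran from 108 to 177 CPM (median 153) without tumour and from 6.72 to 53.0 CPM (median 12.5) with tumour, a change of -2.98 ± 0.4. Col3a1 ran from 442 to 739 CPM (median 606) without tumour and from 17.2 to 264 CPM (median 65.1) with tumour, a change of -2.64 ± 0.5. All 6 fibrillar chains of types I, III and V were lower (-2.64 to -1.98), as were 4 of 5 chains of type VI. Of 5 chains of type IV, the type of the basement membrane, 3 were lower (median -1.57). Col4a1 of this type was at -0.01 (95% interval -0.35 to 0.34) and not called. The exceptions in the collagen list included Col19a1, at 2.1, and Lox, the enzyme that crosslinks collagen, at 1.2. Of 32 laminin, nidogen and integrin genes, 17 were lower and 9 higher (median -0.46). Some matrix proteases went the other way: Mmp3 rose by 3.24 and Adamts4 by 4.12. In a bulk sample fewer cells of a type and less RNA per cell cannot be told apart, and markers of the cells that make matrix moved with it. Of the fibro-adipogenic progenitor markers 1 of 12 were higher and 10 lower (0.216% to 0.526% of counts without, 0.0834% to 0.356% with tumour), though 5 of them also stand in the matrix lists, and of tendon markers 0 of 9 were higher and 8 lower (0.0136% to 0.0435%, then 0.00294% to 0.0338%). Pdgfra, the receptor that defines the progenitors, fell by 0.82 with overlapping ranges. Their part in the fall of matrix genes was not tested.

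Among other cell types, Schwann cell and pericyte markers were mostly lower, and the lists of endothelial, satellite and macrophage markers held few or divided calls. The pericyte and smooth muscle list had a median of -0.87 (-0.26 in LN2 and -0.89 in AB43). Its summed share nevertheless went from 0.373% to 0.582% of counts. Of Schwann cell and myelin markers 0 of 10 were higher and 6 lower, and of pericyte and smooth muscle markers 2 of 11 were higher and 8 lower. Of endothelial markers 3 of 13 were higher and 2 lower, of satellite cell markers 3 of 10 were higher and 3 lower and of macrophage markers 5 of 17 were higher and 1 lower. Medians differed in sign between LN2 and AB43 for macrophage (-0.18 and 0.64), endothelial (0.47 and -0.17) and satellite cell markers (0.08 and -0.31). Macrophage markers averaged -0.68 to 0.50 against sham in splenic libraries and -0.27 to 1.03 against control in subcutaneous ones. Kdr, the VEGF receptor of endothelium, fell by 1.53 without overlap, and Esam, an adhesion molecule of the same cells, rose by 0.82. Cd68 rose by 1.51 and Csf1r fell by 0.88, both macrophage genes with overlapping ranges. Red cell markers were higher in 3 of 3 cases; Slc4a1, band 3 of the red cell membrane, changed by 4.07 ± 1.11, or 2.64 (adjusted p = 0.09) without subcutaneous C26 replicate 4.

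**Figure D5:**
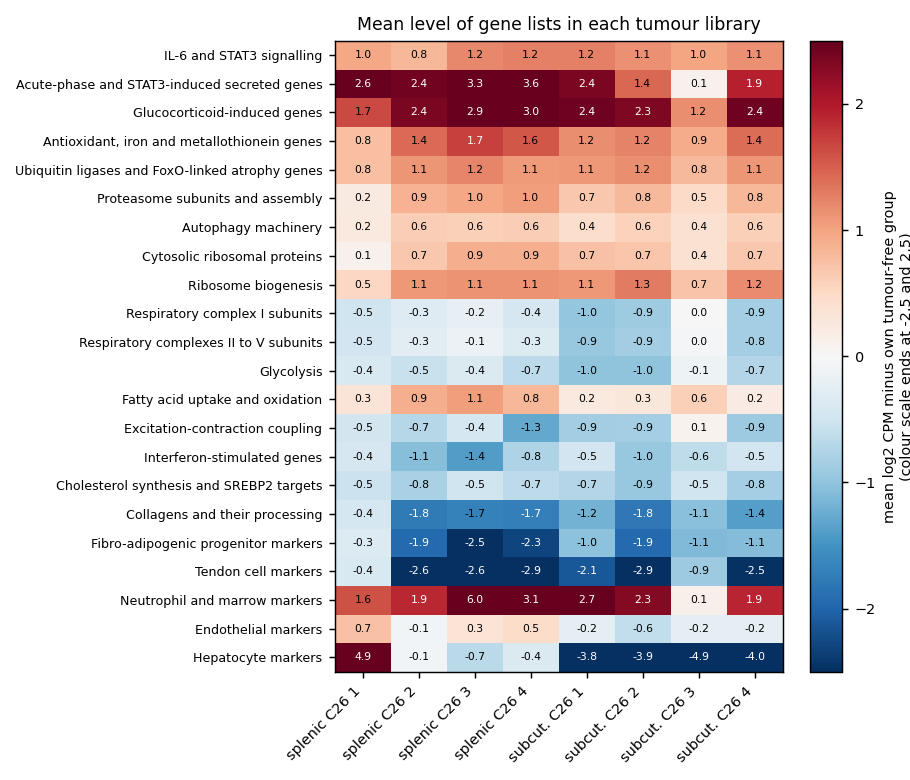
Mean log2 CPM of 22 gene lists in each tumour library relative to its own tumour-free group (colour and number). IL-6 and STAT3 genes are between 0.82 and 1.25 in all 8 libraries, whereas complex I genes are at -0.01 in subcutaneous C26 replicate 3 and hepatocyte markers at 4.94 in splenic C26 replicate 1.

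The 2 tumour libraries of small slope differed in which groups lagged. In splenic C26 replicate 1 the proteasome list rose 22.3% as much as in the other 3 splenic libraries, ribosomal protein genes 13.7% as much, and collagens and progenitor markers fell 25.7% and 14.9% as much. In the same library complex I genes averaged -0.49, below the other 3 (-0.43 to -0.21). In subcutaneous C26 replicate 3 the proteasome rise was 62.4% of that in the other 3 and the collagen fall 72.8%, while complex I genes lacked the fall. Other energy and contraction lists that were lower in the other 3 subcutaneous libraries also lacked it here: fast-fibre genes averaged 0.29 (-1.33 to -0.93 in the others), excitation-contraction coupling 0.08 (-0.91 to -0.86), citric acid cycle genes 0.15 (-0.84 to -0.64) and glycolysis -0.12 (-1.01 to -0.74). TWEAK, TNF and NF-kB genes averaged -0.05 in it and 0.47 to 0.56 in the others. Ubiquitin ligases and FoxO-linked genes reached 67.0% of the others' rise in splenic replicate 1 and 71.9% in subcutaneous replicate 3.

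Beyond the lists, the other strongest rises were scattered in function. Doc2b, a calcium sensor for vesicle release, rose by 5.67 ± 0.72, and Cxcl13, a chemokine that attracts B cells, ran from 0.268 to 1.21 CPM (median 0.737) without tumour and from 5.83 to 104 CPM (median 33.0) with tumour, a change of 5.62 ± 0.55. Tmem252, Plac8 and Scgb3a1 rose by 5.17, 4.57 and 4.73. Mrgprg, an orphan receptor, was nearly silent without tumour, with 8 counts in 8 libraries, and had 1146 counts with tumour (1.02 to 10.8 CPM). It and Clec18a, a lectin-like gene (0.109 to 0.444 CPM, then 1.27 to 3.86), were the only 2 genes at or under 0.5 CPM in all tumour-free and at or over 1 CPM in all tumour libraries.

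The reverse pattern was seen for 8 genes. Apln, the peptide hormone apelin, was at 1.43 CPM or more in every tumour-free and at 0.224 CPM or less in every tumour library, a change of -4.93 ± 0.47. Ankrd34a, Akap5, an anchor for protein kinase A, Stmn4, Lypd6, Dok5, Frmd7 and Plxnb3 were the others, with falls of 2.64 to 4.38. Among more abundant genes the deepest falls after Nmrk2 were those of Nrep, which ran from 98.4 to 179 CPM (median 135) without tumour and from 0.893 to 22.0 CPM (median 1.49) with tumour, Kcng4, a modifier subunit of potassium channels, at -4.53 ± 0.64, and Gdap1, a mitochondrial fission protein mutated in a neuropathy, at -4.2 ± 0.54. Aqp4, the water channel of fast fibres, fell by 3.83, the demethylase gene Tet1 by 4.08 and the coregulator Cited4 by 3.94. Ncan, Slc2a5, a fructose transporter, Rmi2, Pld5 and Pdzd7 fell by 3.76 to 5.0. Of 23 secreted factors of muscle, 7 were higher and 11 lower (median -0.43). Lcn2 and Cxcl13 were the strongest rises among them. Of the hormones, Ostn, musclin, fell by 3.67, Fndc5, the irisin precursor, by 1.38 and Il15 by 1.17, the last 2 with overlapping ranges.

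Common reference genes were among those that changed. Of 22 genes used to normalise RT-qPCR, 11 were higher and 6 lower, or 8 and 9 with upper-quartile scaling; the share called was 77.3%, near the 65.4% of all genes tested. Gapdh, Sdha, Rn45s and Polr2a were among those not called. Gapdh ran from 3023 to 4957 CPM without tumour and from 2511 to 4902 CPM with tumour, with a 95% interval of -0.51 to 0.12. Actb was at -0.43 ± 0.12, B2m at -0.64 ± 0.19 and Tuba1a at -1.26 ± 0.22, while Tbp was at 0.59 ± 0.1 and Csnk2a2 at 1.08 ± 0.12, the last 2 without overlap. Hprt (adjusted p = 0.038) and Eef1a1 (adjusted p = 0.0323) lost their calls when a library was left out: Hprt without any sham library, splenic 3 or 4, control 2 or 3, or subcutaneous 1 or 2 (0.24 to 0.40), and Eef1a1 without sham 1, 3 or 4, splenic 4, control 3 or 4, or subcutaneous 1, 2 or 4 (0.42 to 0.52). Without subcutaneous C26 replicate 3 Gapdh (-0.31, adjusted p = 0.0409) and Sdha (-0.36, adjusted p = 0.00676) were called lower, and Polr2a was called higher without splenic C26 replicate 2 (0.23, adjusted p = 0.0441).

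Among genes of at least 50 CPM, Cdc5l, Chd8, Rars, Slmap, Fkbp8, Ddx6 and Tmed4 were among those with the tightest intervals around 0. Cdc5l, a splicing factor, had an interval of -0.14 to 0.14 and Ddx6, an RNA helicase, of -0.17 to 0.1. These statements hold relative to TMM scaling; upper-quartile scaling called these 7 lower.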

How the data were processed

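Raw read counts per gene symbol were deposited by the authors for all 16 libraries, made with STAR and featureCounts per the labels; the submitters' processing notes list FastQC, STAR, edgeR and mm10. Neither versions nor the annotation or strand setting are stated there, so overlapping genes and close copies cannot be separated with certainty. The second deposited table held log2 values, which matched log2 CPM up to constants per gene and per library (residual SD 0.001011 over 6742 genes) and served as an alternative. The count table had 13320 genes, all over 0.5 CPM in at least 4 libraries, and 4013 blank lines that were left out; 12847 symbols (96.4%) matched GENCODE M21 on GRCm38, which gave the coordinates. No column outside the series was used, and no 2 libraries of a group agreed within sampling noise (chi-square over its degrees of freedom 12.9 or more).

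Genes kept by filterByExpr (13247; 73 removed) were tested with the quasi-likelihood test of edgeR 4.0.16 (R 4.3.3; TMM, robust, title prefix as covariate, Benjamini-Hochberg adjustment, threshold 0.05). The difference between tumour effects used 1 mean per group. SEs and 95% intervals come from the same test, and levels are TMM-scaled CPM. In simulated counts of 13247 genes with 200 changed, the pooled test found 77% of the 2-fold and 97% of the 4-fold changes, and 9 of 183 calls were false. The simulation gave tumour and tumour-free libraries the same spread for each gene. In the data 65.4% of genes were called and the coefficient of variation was 0.353 with and 0.177 without tumour. The simulated rates may therefore not hold for the data. Level differences of lists are mean log2 CPM (prior count 2) against the library's own tumour-free group.

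Members and gene lists were chosen with earlier results of these data known. Named genes were the 15 highest and 15 lowest non-overlapping log2 fold changes of at least 1 CPM with a symbol that is no predicted model, the 6 largest gains and losses of count share, the 2 smallest p of each of 62 lists, all reference genes, 20 genes known from wasting, the 6 smallest p each way for the difference, the 8 tightest intervals around 0 and the genes switched on or off; some of these genes are not reported here. Further list members, and the subsets of lists, were chosen after seeing their values. Alternatives were other scalings, filters and thresholds, DESeq2 1.42.0, limma 3.58.1 (voom and trend), other designs, removal of the most abundant genes, omission of each library, and omission of 2 or 4 libraries.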

Additional observations from a re-analysis of the deposited data

Results flagged for a closer look

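Groups of 8 values were taken from named genes, list levels, total counts and the principal components PC1 and PC2. In 236 such groups, 21 libraries lay farther from the rest than a Dixon test allows (gap over range above 0.526). In a single normal population chance sets about 1 group in 20 apart. Gene values were untransformed CPM and each group pooled libraries of different tumour labels, so this rate may not hold. Several of the libraries set apart were the same. Among tumour libraries, splenic C26 replicate 3 had the highest Lcn2 (2318 CPM, next 620.4), Foxo1 (365.4 CPM, next 236.4) and Ppargc1a (637.6 CPM, next 174.6), and splenic C26 replicate 4 the highest Doc2b (99.16 CPM, next 36.43). Subcutaneous C26 replicate 3, of small slope, had the highest Nmrk2 (49.72 CPM, next 12.41), Rmi2 (1.324 CPM), Acta1 (39840 CPM, next 22630) and Ckm (27770 CPM, next 17960). Splenic C26 replicate 1, also of small slope, had the highest Akap5 (0.2874 CPM, next 0.141), the lowest mean level of ubiquitin and conjugating-enzyme genes (-0.0375, next 0.171) and of CCT chaperonin genes (0.0602, next 0.551), and the highest of laminins, nidogens and integrins (-0.0429, next -0.591).

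Among tumour-free libraries, control replicate 2 stood apart for genes that tumour raised: Mt2 (13.51 CPM, next 4.403), Mt1 (22.78 CPM, next 13.66), Serpina3n (24.32 CPM, next 13.41), Socs3 (6.131 CPM, next 4.796) and Fkbp5 (108.9 CPM, next 49.99). In each case it still lay below every tumour library. Control replicate 1 had the highest mean level of neutrophil and marrow markers (2.26, next 0.193) and of red cell markers (2.35, next 0.218). Control replicate 4 had the highest Nmrk2 (582.4 CPM, next 379.6) and sham replicate 4 the highest Mrgprg (0.1028 CPM, next 0.03414).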

How the results depend on the processing

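The pooled counts moved little under some alternatives, with 4154 to 4628 genes higher and 4114 to 4936 lower. These were RLE scaling, no filter, DESeq2, limma-voom, limma-trend, no prefix term, and omission of each library, of the 2 libraries of small slope or of the 4 with other tissues. Upper-quartile scaling gave 3210 higher and 5888 lower. A mean CPM of at least 1 gave 4120 and 3976, and an adjusted p under 0.01 gave 3732 and 3359. In the LN2 libraries alone 2560 were lower. Of 9694 values of 335 named genes under the alternatives, 9534 kept direction and side of the threshold, 115 lost and 42 gained a call, and 3 were reversed, all by upper-quartile scaling: Cdc5l (-0.22), Fkbp8 (-0.20) and Tmed4 (-0.19), which sit at 0 with TMM. Of 3538 list counts 3402 stayed within 1.5 times. Non-overlapping genes numbered 1807 above and 1390 below with RLE and 1277 and 2119 with upper-quartile scaling, a check chosen after seeing the data. The difference between the 2 tumour effects, with 0 calls, gave 58 with DESeq2, 254 without the 2 libraries of small slope and 0 to 35 when a library was left out (35 without splenic C26 replicate 2, 9 without splenic 1, 4 without subcutaneous 3, 1 each without splenic 4 or subcutaneous 4). Genes called higher under both prefixes, 2818, became 1873 with upper-quartile scaling, 1494 at an adjusted p of 0.01 and 2135 to 3169 leaving out a library. Those called lower, 1946, became 2992, 543 and 1354 to 2546, and 3184 without the 2 libraries of small slope. Fewer samples enter the fits within a prefix; otherwise the cause was not tested. No paired analysis was possible because the tumour and tumour-free libraries of a prefix share no number in their titles. Depth limits the thinly expressed genes: the lowest of 5 bins had at most 2.63 CPM on average.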
